A study of Mus musculus with 6 samples.

Results

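The 7 genes described here encode receptors through which the liver senses foreign chemicals, sterols and steroid hormones: Nr1i2, Nr1i3, Ahr, Rxra, Nr1h3, Nr5a2 and Nr3c1. They were taken by name from a table of 8390 genes, and all 7 were present. RNA was sequenced from 6 liver samples of the inbred mouse strain C57BL/6. The LV group held 3 samples from mice given 3e8 transducing units of a lentiviral vector into a vein, with the liver taken 4 h later, and the other group held 3 samples from untreated mice. The labels do not say whether the samples of a group came from separate animals, and each is called a liver below. Such vectors are retrovirus-based gene carriers that cannot replicate. No mock-injected animals are among the samples, so the vector cannot be told apart from the injection and handling. The labels give neither age nor sex, and whole livers were used, so the RNA came from all liver cell types.

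PXR (Nr1i2) and CAR (Nr1i3) are nuclear receptors that switch on genes for drug uptake, oxidation, conjugation and export when foreign compounds or bile acids are present. Both act as pairs with RXRα (Rxra), the shared partner of many metabolic receptors, and LXRα (Nr1h3), a sensor of oxysterols, uses the same partner. LRH-1 (Nr5a2) controls bile acid and cholesterol genes and binds DNA on its own, and the glucocorticoid receptor (Nr3c1) carries the response to corticosterone in mice. Ahr, the aryl hydrocarbon receptor, senses dioxin-like compounds and pairs with Arnt. It belongs to the bHLH-PAS family and is not a nuclear receptor, so the name of the group holds for 6 of the 7 genes by family and for all 7 by role.

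The stretches before the annotated starts of the pair of xenobiotic receptors are shown because these were the 2 genes with lower values in every LV liver. They come from RefSeq, assembly GRCm38.p6, which is not the build of the deposited table, and each is given 5′ to 3′ on the strand of its gene, up to the last base before the gene model. The Nr1i3 stretch lies at chr1:171213720-171213933 on the plus strand and the Nr1i2 stretch at chr16:38294850-38295074 on the minus strand. Capitals mark a match to CACGTG, the E-box that many bHLH proteins bind, which was added to the search after the sequence had been seen.
Nr1i3: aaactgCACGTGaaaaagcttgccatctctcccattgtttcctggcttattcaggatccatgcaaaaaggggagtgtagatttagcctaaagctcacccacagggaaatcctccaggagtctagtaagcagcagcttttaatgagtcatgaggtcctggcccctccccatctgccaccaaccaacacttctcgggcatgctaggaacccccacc
Nr1i2: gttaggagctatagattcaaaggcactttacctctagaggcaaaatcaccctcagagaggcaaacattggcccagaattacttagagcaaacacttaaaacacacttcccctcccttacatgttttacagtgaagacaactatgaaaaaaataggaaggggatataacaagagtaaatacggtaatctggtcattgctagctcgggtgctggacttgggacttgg
In the 250 bases before each start, a few of which lie inside the gene model and are not shown, 7 motifs were searched on both strands: TTCNNNGAA (the gamma-activated site of STAT proteins), the interferon-stimulated response core (GAAA repeated after 2 bases), the NF-kB consensus, AGGTCA (the half-site of many nuclear receptors), the glucocorticoid response element (GNACA and TGTNC, 3 bases apart), CAAAGNCCA (an HNF4 core) and CACGTG. The single match in the Nr1i3 window was the E-box, and the Nr1i2 window held 0 matches. Over all 32851 RefSeq windows, the shares with a match were 7.02% for TTCNNNGAA, 2.98% for the interferon core, 3.90% for NF-kB, 14.0% for AGGTCA, 0.387% for the glucocorticoid element, 1.70% for CAAAGNCCA and 6.02% for CACGTG. Windows were listed for 5 of the 7 genes, with 2 windows each for Rxra, Nr1h3 and Nr5a2. AGGTCA was found 1 time in 1 window of Nr5a2. It was found 2 times in 1 window of Rxra, which lies wholly inside the gene model, and 0 times in the other. A match is a run of letters and was not tested as a binding site.

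Values are the whole numbers of the deposited table, a score that appears to be scaled for library size and transcript length. Levels of different genes can therefore be set beside each other only approximately. A fold change is the difference of mean log2(value + 1), LV minus untreated, from limma fitted over all 8386 genes tested, with Benjamini-Hochberg adjustment over them and a threshold of 0.05. Library sums ran from 497295 to 526009, which is no read depth, and depth is unknown. LV replicate 3 and untreated replicate 2 stood apart from the other libraries on the second principal component (-29.5 and -19.8, against 5.71 to 16.7 elsewhere). The male-biased elongase gene Elovl3 had values of 169 and 159 in these libraries and 0 to 4 in the others. Since replicates are known only from their titles, the p-values reflect the scatter among these libraries, an unknown part of which may be technical.

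Of the 7 receptor genes, 0 passed the test in either direction in limma, while over all genes tested 4.63% passed, 3.76% higher and 0.87% lower. At an unadjusted p under 0.05 there were 2, both lower in LV livers, and 0 were higher. At that level 10.3% of all genes were lower and 9.21% higher. The same 2 genes, Nr1i3 and Nr1i2, had every LV value below every untreated value, as did 11% of all genes tested. No receptor gene had every LV value above, as 8.65% of all genes did. A negative fold change was found in 4 of the 7 and in 58.1% of all genes. The median fold change of the 7 was -0.08 on the log2 scale, against -0.07 over all genes.

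**Figure D1:**
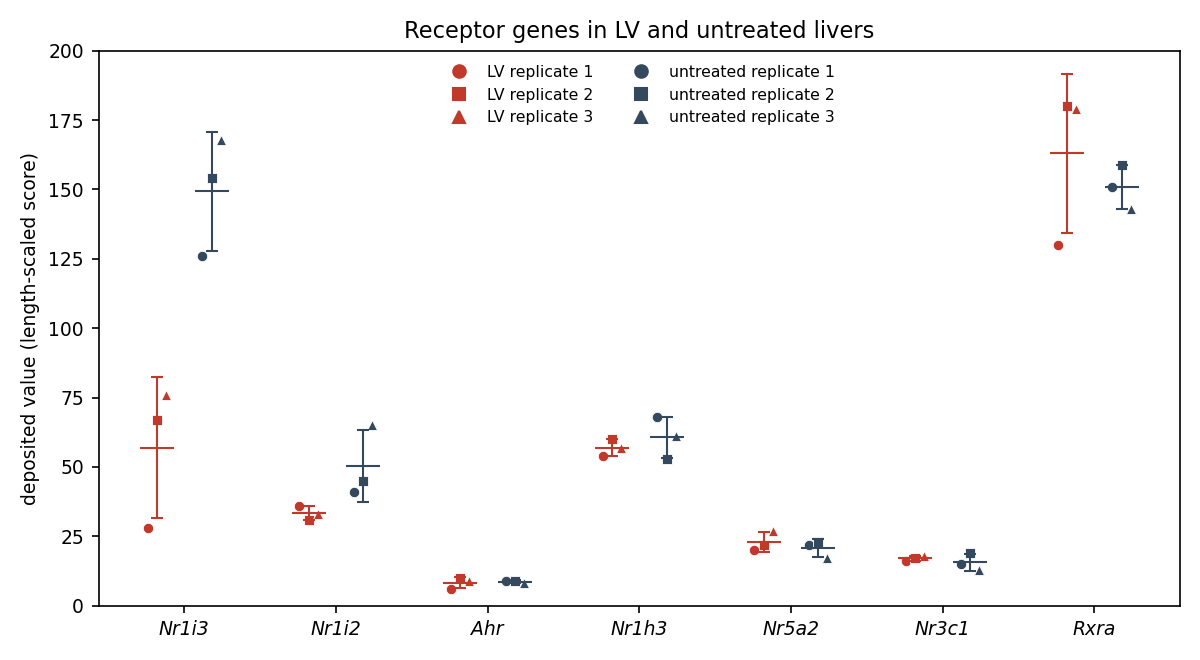
Deposited values (length-scaled score, linear axis from 0) of the 7 receptor genes in each LV liver (red, left of each pair) and untreated liver (dark, right), with mean and SD as bars; circles, squares and triangles are replicates 1, 2 and 3. Nr1i3 lay at 28 to 76 in LV livers and 126 to 168 in untreated livers, and Rxra at 130 to 180 in LV livers and 143 to 159 in untreated livers.

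Nr1i3 had the lowest fold change of the 7. Its value was 28, 67 and 76 in LV livers, against 126, 154 and 168 in untreated livers. The groups did not overlap, and the LV livers lay at 18.8%, 44.9% and 50.9% of the untreated mean. The means were 57 ± 25.5 in LV and 149 ± 21.4 in untreated livers (SD, n = 3 each). The log2 fold change was -1.48 ± 0.40 SE, with a 95% interval of -2.48 to -0.49 before adjustment, or 0.357 times the untreated level (interval 0.179 to 0.713). In limma the p was 0.0114 unadjusted and 0.122 adjusted, so the difference did not pass over all genes. By fold change it ranked 19 from the bottom of 8386 genes, and by limma p it ranked 789.

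LV replicate 1 was the lowest liver, and the highest LV value was 2.71 times the lowest. Without LV replicate 1 the log2 fold change was -1.04 ± 0.16 SE (limma adjusted p = 0.0715), a smaller difference with a smaller error. With both high-Elovl3 libraries left out it was -1.72 ± 0.56 (limma adjusted p = 0.240). Over all 16 alternative settings the fold change stayed between -1.75 and -1.04, and the adjusted p between 0.0546 and 0.281. The exact two-sided permutation p of the difference of means was 0.1, the smallest that 3 against 3 libraries allow.

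Summed Kupffer and sinusoidal endothelial cell markers were also lowest in LV replicate 1. Not every marker was low there: the endothelial Lyve1 had 10 there and 2 to 5 elsewhere, and Cdh5 19 against 14 to 21. The summed level of 11 Kupffer cell markers in the table (of 12 listed) was 136 there and 206 and 319 in the other LV livers, against 254 to 375 in untreated livers. That of 12 sinusoidal endothelial markers was 125 there and 197 and 217 in the other LV livers, against 220 to 250 in untreated livers. For 11 of 12 stellate cell markers the sums ranged from 114 to 166 in LV and from 129 to 193 in untreated livers, and for 3 of 8 cholangiocyte markers from 51 to 69 in LV and from 53 to 71 in untreated livers. Hepatocyte markers (11 of 12, among them Alb) summed to between 81847 and 97114 in LV livers and between 84056 and 114550 in untreated livers. No marker found in the table was at 0 in every library, and of 12 neutrophil or monocyte and 12 lymphocyte markers 0 were found in the table. The part of these shifts in the receptor values was not tested, and in whole liver fewer cells of a type and less RNA per cell cannot be told apart.

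Nr1i3 shares sequence with a neighbour. Tomm40l, which encodes a mitochondrial import protein, lies on the opposite strand, and in the GENCODE M21 annotation (GRCm38) its exons cover 66.1% of the exonic bases of Nr1i3. Exons of all protein-coding transcripts of each gene were pooled for that share, so it can differ for a single transcript. The TruSeq RNA kit named in the labels does not mark strand, and the sources used here do not say how reads were counted, so reads from the shared stretch cannot be told apart. Tomm40l had values of 12, 29 and 31 in LV livers, against 67, 71 and 117 in untreated livers, again without overlap. Its log2 fold change was -1.84 ± 0.42 SE (limma adjusted p = 0.0826). Its value came to between 40.8% and 43.3% of that of Nr1i3 in LV livers and between 46.1% and 69.6% in untreated livers. How reads of the locus divide between the 2 genes is uncertain.

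Tomm40l was also among the 3 genes whose pattern over the 6 libraries was nearest to that of Nr1i3. Likeness was the root mean square difference of the deviations of log2(value + 1) from each gene's own mean, over 6781 genes with a mean of at least 5. The nearest was Ppargc1b (0.228), a coactivator of nuclear receptors, with 1, 2 and 4 in LV livers, against 7, 9 and 11 in untreated livers. Lpin1 (0.246), a phosphatidate phosphatase, had 10, 20 and 24 in LV livers, against 33, 47 and 76 in untreated livers. Tomm40l followed at 0.251. In all 4 genes LV replicate 1 had the lowest value and untreated replicate 3 the highest. Because the genes were picked for likeness over these same libraries, that shared order largely follows from the choice.

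**Figure D2:**
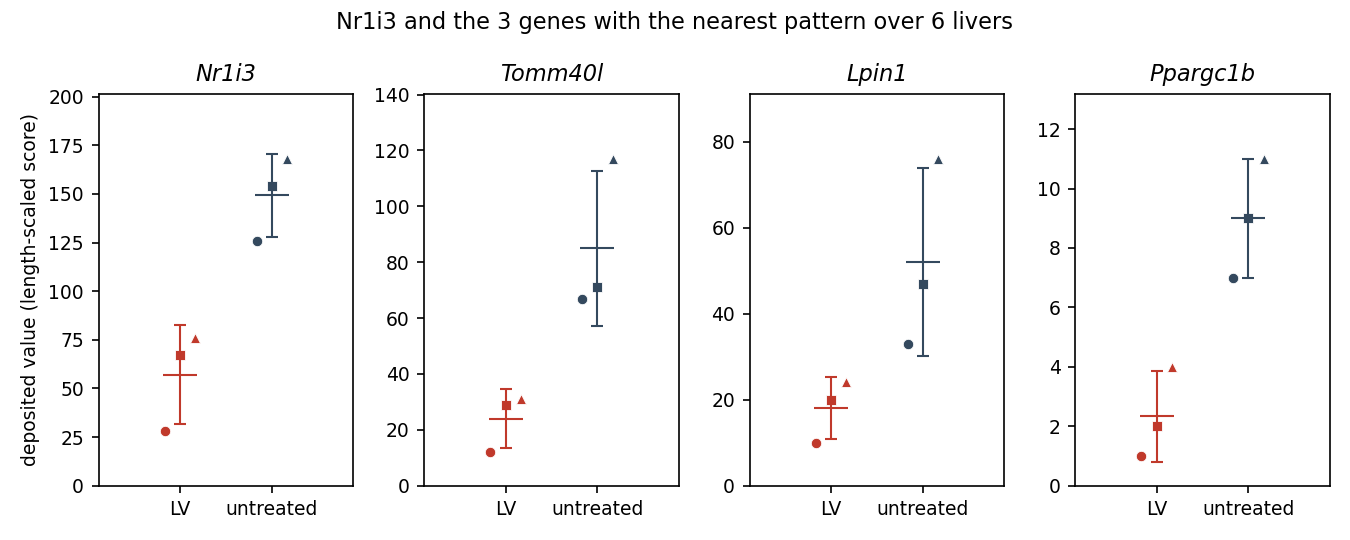
Deposited values (linear axes from 0, scaled to each gene) of Nr1i3 and of the 3 genes nearest to it in pattern, in LV livers (red, left) and untreated livers (dark, right), with mean and SD; circles, squares and triangles are replicates 1, 2 and 3. In each panel the 3 LV values lie below the 3 untreated values, as with Tomm40l at 12 to 31 in LV livers and 67 to 117 in untreated livers.

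Nr1i2, the other xenobiotic receptor, was lower by a smaller amount. Its value was 36, 31 and 33 in LV livers, against 41, 45 and 65 in untreated livers. The groups did not overlap, the highest LV value being 36 and the lowest untreated one 41, and untreated replicate 3 stood above the other livers. The log2 fold change was -0.55 ± 0.19 SE, or 0.681 times the untreated level (95% interval 0.491 to 0.944), with a limma p of 0.0288 unadjusted and 0.194 adjusted. Without untreated replicate 3 it was -0.36 ± 0.10 (limma adjusted p = 0.208). Its nearest genes in pattern were Stim2 (0.083), Bola3 (0.108) and Chchd10 (0.112).

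The value of Nr1i3 relative to its partner Rxra was 0.215, 0.372 and 0.425 in LV livers, against 0.834, 0.969 and 1.17 in untreated livers, with no overlap. Nr1i2 relative to Rxra was 0.277, 0.172 and 0.184 in LV livers, against 0.272, 0.283 and 0.455 in untreated livers, and these ranges overlapped. These quotients are of length-scaled scores and were not tested.

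Rxra itself had the highest mean of the 7 genes. Its value was 130, 180 and 179 in LV livers, against 151, 159 and 143 in untreated livers. The LV values lay on both sides of the untreated ones, with LV replicate 1 the lowest of all. The fold was 1.07 (95% interval 0.822 to 1.39; limma adjusted p = 0.759), and without LV replicate 1 the log2 fold change was 0.25 ± 0.08 (limma adjusted p = 0.264). Nr1h3, the oxysterol sensor, had 54, 60 and 57 in LV livers, against 68, 53 and 61 in untreated livers. Its groups overlapped, and the fold was 0.944 (interval 0.776 to 1.15; limma adjusted p = 0.718).

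The groups overlapped in the remaining 3 receptors. Nr5a2 had 20, 22 and 27 in LV livers, against 22, 23 and 17 in untreated livers, with overlapping groups and a fold of 1.11 (95% interval 0.832 to 1.48). Nr3c1 had 16, 17 and 18 in LV livers, against 15, 19 and 13 in untreated livers, so the LV values lay within the untreated range (fold 1.09, interval 0.841 to 1.41). Ahr, the lowest of the 7, had 6, 10 and 9 in LV livers, against 9, 9 and 8 in untreated livers, where rounding to whole numbers limits what can be seen (fold 0.949, interval 0.685 to 1.32). The limma adjusted p of these genes was 0.654, 0.679 and 0.853. The exact two-sided permutation p was 0.6 for Rxra, Nr1h3, Nr5a2 and Nr3c1 and 1 for Ahr.

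Each of the other receptors had nearest genes at small distances. For Rxra they were 5730403B10Rik (0.043), Epas1 (0.051) and Pcsk7 (0.059), and for Nr1h3 Bgn (0.032), Sgta (0.038) and Ppp1r12c (0.038). Nr5a2 had Myo9b (0.044), Ddi2 (0.048) and Zdhhc3 (0.049), Nr3c1 had Zfp106 (0.028), Ikbkb (0.032) and Smek2 (0.038), and Ahr had Psmd8 (0.040), Med25 (0.050) and Tmem199 (0.070). Genes that vary little lie near one another by this measure.

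By mean value over the 6 libraries the order was Rxra (157), Nr1i3 (103), Nr1h3 (58.8), Nr1i2 (41.8), Nr5a2 (21.8), Nr3c1 (16.3) and Ahr (8.50). Which neighbours overlapped differed between the groups. In LV livers Nr1i3 (57 ± 25.5) lay below Rxra (163 ± 28.6) and overlapped with Nr1h3 (57 ± 3) and with Nr1i2, whereas in untreated livers Nr1i3 (149 ± 21.4) and Rxra (151 ± 8) overlapped at the top. Nr1h3 and Nr1i2 did not overlap in LV livers (54 to 60 and 31 to 36) but did in untreated livers (53 to 68 and 41 to 65). Nr5a2 and Nr3c1 likewise did not overlap in LV livers (23 ± 3.61 and 17 ± 1) but did in untreated livers (20.7 ± 3.21 and 15.7 ± 3.06). Nr3c1 lay above Ahr in each group. Rxra was exceeded in mean value by 5.02% of the genes in the table and Ahr by 62.0%.

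Among other nuclear receptors, 1 gene passed the test, and it was higher. Of 49 listed members of the superfamily 31 were in the table, 6 of them receptors described above. Of the other 25, 1 was higher and 0 were lower in limma, and 21 had a negative fold change (84.0%, against 58.1% of all genes tested). Their median was -0.32, against -0.07 for all genes. A call of 1 lower gene was gained under 5 of the 16 alternatives. Where both high-Elovl3 libraries were left out, it was Thrb, a thyroid hormone receptor (limma adjusted p = 0.0016). Thrb then had 1 in each LV liver and 2 in each untreated liver, so all values of a group were equal. With values this low, that is 1 step of rounding. Under the other alternatives it was another gene, whose values are not reported here. The gene that rose was Rxrg, which encodes RXRγ, a form of the common partner best known from muscle and brain. It had 17, 14 and 12 in LV livers, against 4, 4 and 3 in untreated livers, with no overlap. The log2 fold change was 1.71 ± 0.16 SE (limma adjusted p = 0.00555). Leaving out any single library kept the adjusted p at 0.0492 or below, and without both high-Elovl3 libraries it was 0.0524. The third form, Rxrb, had a fold change of -0.20 ± 0.10 (limma adjusted p = 0.342).

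Esrra, an activator of mitochondrial genes, had 14, 15 and 17 in LV livers, against 20, 22 and 22 in untreated livers, without overlap (log2 fold change -0.45 ± 0.10, limma adjusted p = 0.0759). Ppara, the receptor for fatty acids, had 13, 26 and 22 in LV livers, against 30, 35 and 32 in untreated livers (-0.69 ± 0.26, limma adjusted p = 0.227). Hnf4a, a receptor that maintains hepatocyte genes, had 227, 218 and 216 in LV livers, against 189, 193 and 184 in untreated livers. Its LV values all lay above the untreated ones (0.22 ± 0.07, limma adjusted p = 0.160). The bile acid receptor Nr1h4 had a fold change of -0.32 ± 0.21 and the second LXR gene, Nr1h2, of 0.12 ± 0.09, and their groups overlapped.

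**Figure D3:**
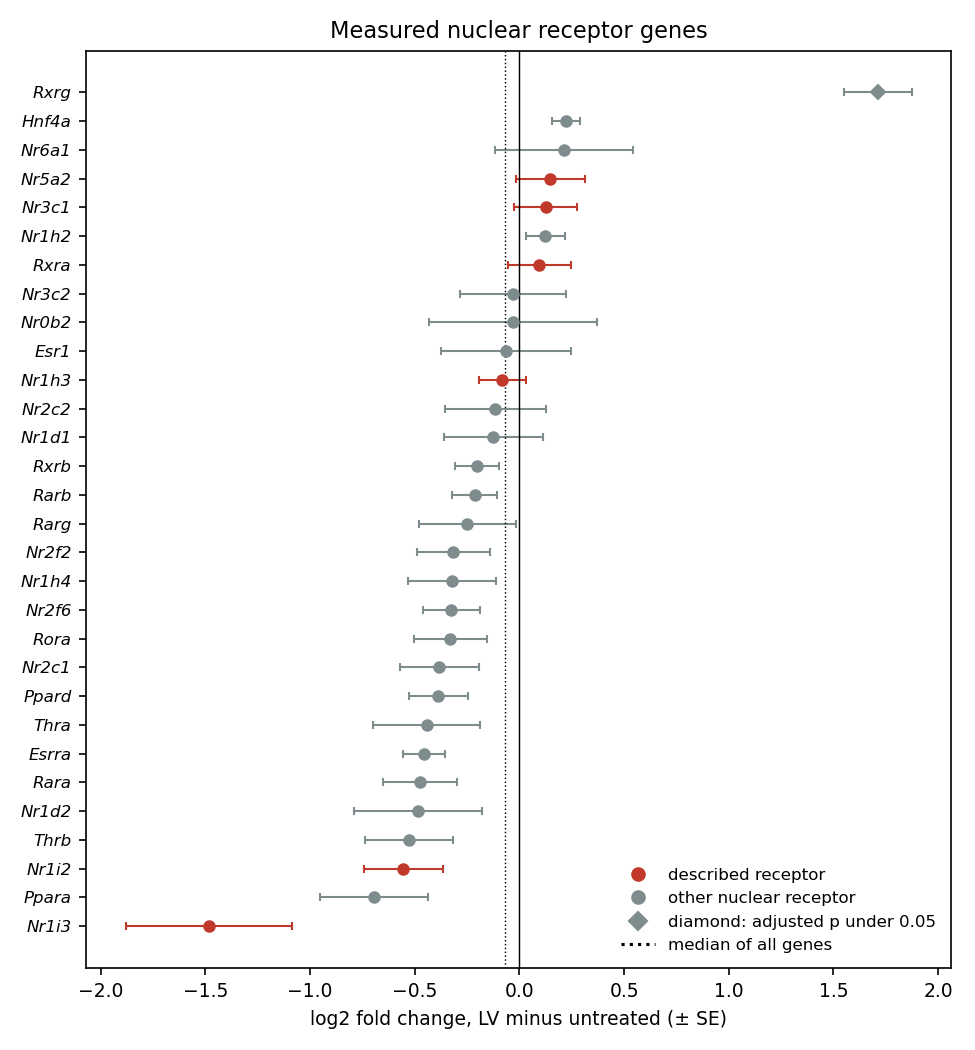
Log2 fold change, LV minus untreated, with its SE from limma, for the measured nuclear receptor genes except 1 that is not drawn, sorted by size; red points are 6 of the receptors described here, the diamond marks adjusted p under 0.05 and the dotted line the median of all genes. Nr1i3 lies lowest at -1.48 and Rxrg highest at 1.71.

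Of 26 measured coregulators and partner proteins 0 passed in limma in either direction. A negative fold change was found in 13 (50%, against 58.1% of all genes), and the median was -0.04. At an unadjusted p under 0.05, 2 were higher (7.69%, against 9.21% of all genes) and 1 was lower (3.85%, against 10.3%). The lower gene was Ppargc1b (-1.67 ± 0.36, limma adjusted p = 0.0747), given above beside Nr1i3. Ppargc1b passed under 5 of the 16 alternatives, with adjusted p between 0.0242 and 0.0426. Med1, a Mediator subunit that binds nuclear receptors, had 24, 21 and 25 in LV livers, against 13, 19 and 14 in untreated livers (0.59 ± 0.16, limma adjusted p = 0.127). Fkbp5, a cochaperone of the glucocorticoid receptor and also one of its targets, had 36, 35 and 46 in LV livers, against 15, 25 and 28 in untreated livers (0.79 ± 0.26, limma adjusted p = 0.178). Arnt, the partner of Ahr, lay at 12 to 13 in LV livers and 9 to 13 in untreated livers.

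Genes known as targets of PXR and CAR showed 0 calls in either direction in limma. Of 24 measured, 20 had a negative fold change (83.3%, against 58.1% of all genes) and the median was -0.25. At an unadjusted p under 0.05, 1 was higher (4.17%, against 9.21% of all genes) and 2 were lower (8.33%, against 10.3%). The 2 lower ones are P450s of drug metabolism: Cyp2c37 had 163, 192 and 147 in LV livers, against 263, 224 and 318 in untreated livers (-0.67 ± 0.17, limma adjusted p = 0.105), and Cyp2c50 had a fold change of -0.55 ± 0.17 (limma adjusted p = 0.162). Cyp3a13 had higher values without overlap, 53, 43 and 47 in LV livers, against 33, 35 and 30 in untreated livers (0.53 ± 0.11, limma adjusted p = 0.0674). Its adjusted p was 0.0427 after quantile normalization and 0.0394 after scaling by the median of ratios. Cyp2c29, a classical CAR target, had 774, 777 and 765 in LV livers, against 893, 882 and 597 in untreated livers, and the groups overlapped. Alas1, the first enzyme of haem synthesis, varied widely within both groups (25 to 111 in LV and 31 to 336 in untreated livers), and Por, which supplies P450s with electrons, had a fold change of -0.03 ± 0.28. Cyp3a11, a classical PXR target, had 1075, 1005 and 961 in LV livers, against 1079, 1532 and 1087 in untreated livers. Its LV values all lay below the untreated ones, by as little as 1075 against 1079 (-0.26 ± 0.17, limma adjusted p = 0.439). Cyp2b10, a listed CAR target, is not among the genes with deposited values.

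Of 10 measured Ahr targets 0 passed in limma, and 9 had a negative fold change (90%, against 58.1% of all genes). At an unadjusted p under 0.05, 0 were higher (9.21% of all genes were) and 1 was lower (10%, against 10.3% of all genes), Htatip2 (-0.39 ± 0.15, limma adjusted p = 0.245). Cyp1a2, the abundant P450 of this group, had 306, 556 and 615 in LV livers, against 754, 742 and 565 in untreated livers. The groups overlapped, with LV replicate 1 the lowest (-0.53 ± 0.30, limma adjusted p = 0.383). Tiparp lay at 2 to 3 in LV livers and at 2 in each untreated liver, and Nqo1 at 4 to 10 in LV livers and 5 to 7 in untreated livers. Ugt1a6a (-0.28 ± 0.14) and Nfe2l2 (-0.35 ± 0.17) had adjusted p values of 0.337 and 0.324 in limma.

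Among LXR targets 1 of 24 measured genes passed, and it was lower. Lpcat3, which loads polyunsaturated fatty acids into phospholipids, had 30, 30 and 35 in LV livers, against 58, 65 and 71 in untreated livers, without overlap. The log2 fold change was -1.01 ± 0.11 SE (limma adjusted p = 0.0097). The call was lost without LV replicate 1 (adjusted p = 0.0579), without LV replicate 2 (0.0633) and without both high-Elovl3 libraries (0.0750). In all, 20 of the 24 had a negative fold change (83.3%, against 58.1% of all genes) and the median was -0.27. At an unadjusted p under 0.05, 1 was higher (4.17%, against 9.21% of all genes) and 6 were lower (25%, against 10.3%). The sterol exporters Abcg8 and Abcg5, also listed for Nr5a2, were below the untreated values in each LV liver (-0.95 ± 0.23 and -0.93 ± 0.28, limma adjusted p = 0.1002 and 0.149). Smpdl3a had a fold change of -0.43 ± 0.12 (limma adjusted p = 0.145). Abca1, the cholesterol exporter that is the standard LXR target, had 58, 54 and 38 in LV livers, against 30, 38 and 20 in untreated livers (0.77 ± 0.28, limma adjusted p = 0.218). Srebf1, which drives fatty acid synthesis, had overlapping groups (-0.02 ± 0.35), as had Mylip (-0.53 ± 0.20), and Abcg1 lay at 3 in each LV liver and at 2 to 3 in untreated livers. Abcg1 passed as higher without untreated replicate 1 (limma adjusted p = 0.0298), where all values of a group were equal.

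Of 20 Nr5a2 targets 0 passed in limma, with 15 negative fold changes (75%, against 58.1% of all genes) and a median of -0.17. At an unadjusted p under 0.05, 1 was higher (5%, against 9.21% of all genes) and 5 were lower (25%, against 10.3%). The choline kinase gene Chkb had 16, 16 and 18 in LV livers, against 23, 21 and 23 in untreated livers (-0.40 ± 0.09, limma adjusted p = 0.0734), and without both high-Elovl3 libraries it passed (0.0440). Slc10a1, the bile acid importer of hepatocytes, had 298, 439 and 396 in LV livers, against 523, 588 and 587 in untreated livers (-0.60 ± 0.17, limma adjusted p = 0.129). Cyp8b1, which sets the kind of bile acid made, had 51, 66 and 191 in LV livers, against 216, 227 and 117 in untreated livers (-1.04 ± 0.56, limma adjusted p = 0.365). LV replicate 3 lay within the untreated range there. Nr0b2, the repressor that LRH-1 and FXR induce, had 45, 36 and 18 in LV livers, against 45, 24 and 29 in untreated livers, and Cyp7a1 likewise overlapped (-0.41 ± 0.50).

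Of 23 measured glucocorticoid targets, 1 rose and 1 fell in limma, 15 had a negative fold change (65.2%, against 58.1% of all genes) and the median was -0.08. At an unadjusted p under 0.05, 6 were higher (26.1%, against 9.21% of all genes) and 5 were lower (21.7%, against 10.3%). Mt2, a metallothionein that also responds to metals and inflammation, had 2385, 1355 and 594 in LV livers, against 51, 31 and 133 in untreated livers (4.36 ± 0.72 SE, limma adjusted p = 0.0362). Its paralog Mt1 had 3471, 2267 and 1372 in LV livers, against 207, 190 and 579 in untreated livers (2.96 ± 0.56, limma adjusted p = 0.0506). Mt1 passed under 6 of the 16 alternatives, with adjusted p between 0.0104 and 0.0485. Tsc22d3, which encodes GILZ, a mediator of glucocorticoid effects, had 25, 28 and 19 in LV livers, against 46, 47 and 52 in untreated livers (-0.996 ± 0.156, limma adjusted p = 0.0303). The groups did not overlap in any of these. With single libraries left out, the calls of Mt2 and Tsc22d3 held only without LV replicate 3, and elsewhere the adjusted p reached 0.159 and 0.123. Each passed under 9 of the 16 alternatives. G6pc, with the lowest fold change of the list, had 38, 78 and 23 in LV livers, against 128, 274 and 89 in untreated livers, without overlap. Its log2 fold change was -1.81 ± 0.59 (limma adjusted p = 0.182), and it passed as lower under 1 of the 16 alternatives (0.0234). Tat, an amino acid catabolic enzyme, had 385, 380 and 260 in LV livers, against 432, 504 and 510 in untreated livers (-0.51 ± 0.18, limma adjusted p = 0.214), while Pck1 (0.66 ± 0.44) and Per1 (-0.80 ± 0.64) had overlapping groups.

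**Figure D4:**
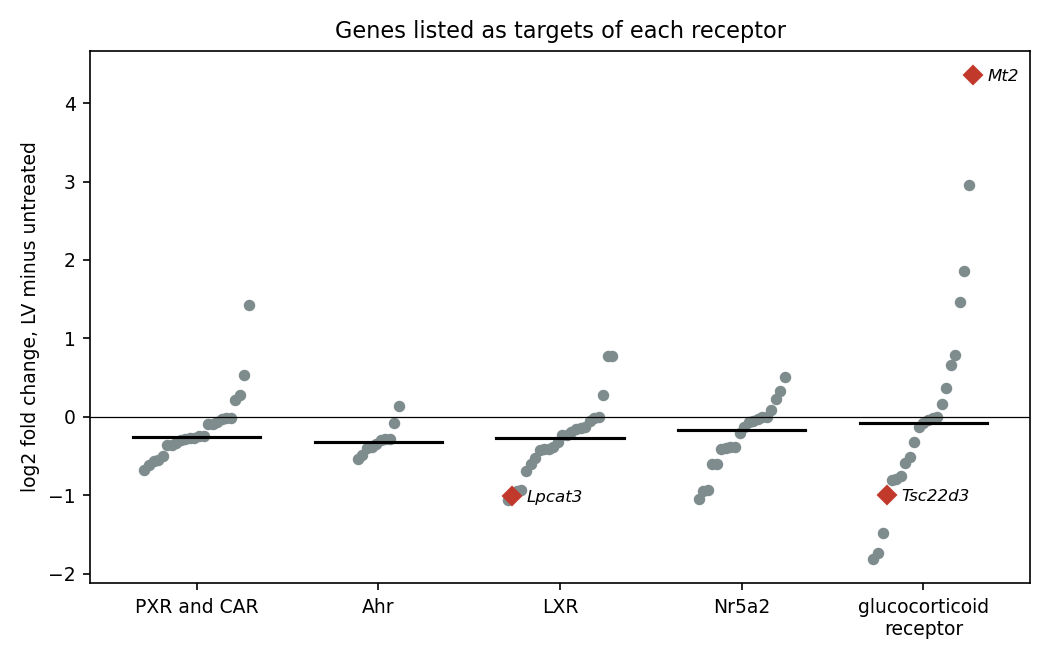
Log2 fold change, LV minus untreated, of each measured gene listed as a target of PXR and CAR, Ahr, LXR, Nr5a2 or the glucocorticoid receptor, sorted within each list (horizontal offset has no meaning); black lines are list medians and diamonds mark adjusted p under 0.05. The medians run from -0.32 for Ahr to -0.08 for the glucocorticoid receptor, and the 3 diamonds are Lpcat3, Tsc22d3 and Mt2.

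The target lists overlap, since Abcg5, Abcg8, Cyp7a1, Fads1 and Fads2 stand in the LXR and Nr5a2 lists and Gstm1 and Ugt1a6a in the Ahr and PXR lists. Many of the listed genes answer to several receptors. The counts therefore describe the lists and do not measure the activity of a receptor.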

How the data were processed

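RNA of whole liver, in 3 LV and 3 untreated samples, was made into TruSeq RNA libraries, per the labels' protocols; the submitters' processing notes give mm9, and aligner and counting method are not stated in what was available. No label or header names the unit of the deposited whole numbers, which are called a score and appear to have been normalized and rounded by the authors. Variance over mean averaged 0.246 in LV and 0.238 in untreated livers at mean values of 2 to 5, less than counted reads give. Low mean values (their first percentile) lay at 6.17 for genes with the shortest transcripts and at 1 for those with the longest, but at 7.80 and 9.20 after multiplying by kb; 87.7% of symbols had a length.

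The 8386 of 8390 genes that reached 1 in 3 or more samples were fitted as log2(value + 1) by group, with no covariate, in limma 3.58.1 (R 4.3.3) with an intensity trend and two-sided Benjamini-Hochberg adjusted p. The fit was tested on simulated data. Exact permutation tests used scipy 1.17.1.

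The 7 members and all gene lists were chosen with earlier results of these data known, from general knowledge; 223 of 297 entries matched by symbol and 1 by synonym, Ces2a as Ces6. Named genes were the members, called list genes and the 3 list genes with the smallest p. A fixed set of known targets and the 3 nearest genes per member were also named. Elovl3, Tomm40l, Abcg5, Thrb, G6pc, Lyve1 and Cdh5 were named after their values had been seen. The values of 1 gene that this rule names are not reported here, though it is counted in its list. Alternatives comprised left-out libraries, a replicate block, another pseudocount, filters, scalings, no trend and added rounding noise.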

Additional observations from a re-analysis of the deposited data

How the results depend on the processing

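No receptor gene passed the threshold under any of the 16 alternatives, and Nr1i3 and Nr1i2 stayed negative in all of them. The sign turned once for Ahr, at 0.12 without LV replicate 1, and once for Nr1h3, at 0.0022 without untreated replicate 1; both lay near 0. With single libraries left out, the fold change ranged from -1.75 to -1.04 for Nr1i3, -0.69 to -0.36 for Nr1i2, -0.21 to 0.12 for Ahr, 0.02 to 0.25 for Rxra, -0.17 to 0.0022 for Nr1h3, 0.02 to 0.24 for Nr5a2 and 0.0075 to 0.26 for Nr3c1.

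Over all genes, 315 were higher and 73 lower. Leaving out single libraries gave 119 to 313 higher and 10 to 116 lower genes, so the count of lower genes in particular rests on single libraries (LV replicate 2 gave the 10, LV replicate 3 the 116). With LV replicate 3 and also untreated replicate 2 removed, 136 genes were lower. A replicate block gave 145 higher and 11 lower genes and 0 receptors. Correlations of deviations between same-numbered livers were 0.278, -0.470 and -0.337. The largest of any pair, 0.612, was between LV replicate 3 and untreated replicate 2. With so few libraries and that shared deviation, the correlations cannot decide whether the numbers pair the samples. Of the lists, 1 lower call was gained for coregulators and 1 for the superfamily under 5 alternatives each. PXR and CAR targets gained 1 higher call under 2 alternatives, and LXR targets under 1. Glucocorticoid targets had 2 higher calls against 1 under 5 alternatives. Nr5a2 targets gained 1 lower call under 1 alternative, and Ahr targets had 0 calls throughout. Counts fell to 0 under 6 alternatives each for higher and for lower glucocorticoid targets. They also fell to 0 under 3 for lower LXR targets and under 1 for higher superfamily genes. The cause of these shifts was not tested. Depth is unknown, and rounding to whole numbers limits low genes such as Ahr.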

Other observations

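The summed value of the 7 receptor genes was 290, 387 and 399 in LV livers, against 432, 462 and 475 in untreated livers. Without Nr1i3 the sums were 262, 320 and 323 in LV livers, against 306, 308 and 307 in untreated livers, so the groups overlapped once that gene was left out. Nr1i3 made up 9.66%, 17.3% and 19.0% of the summed value in LV livers, against 29.2%, 33.3% and 35.4% in untreated livers. LV replicate 1 had the lowest value of all 6 livers for Nr1i3, Rxra and Ahr. These sums were set up after the values had been seen and were not tested.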
